A study of Mus musculus with 12 samples.

Results

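The 4 myogenic basic helix-loop-helix (bHLH) genes Myod1, Myf5, Myf6 and Myog, together with the paired-box gene Pax7, were followed across mouse C2C12 cells. The 5 genes were taken by name from a table of 21232 genes, and all 5 were among the 12736 genes with enough counts to be tested. C2C12 is an established myoblast line, kept here between passages 5 and 10. Its label names C57BL/6 muscle as the source, and this strain of origin was not checked here. The mRNA libraries were made from total RNA with integrity numbers of 9.7 to 10.0. There were 4 groups of 3 libraries, lettered A, B and C. Proliferation cells were harvested at 0 h, in growth medium with 10% fetal bovine serum. The other 3 groups were harvested at 48 h in differentiation medium with 2% horse serum, entered at 90 to 100% confluence. The same confluence is recorded for the proliferation libraries. Control had no other agent named, and TNF had 10 ng/ml tumour necrosis factor alpha. Fbxl2 siRNA had silencing of Fbxl2, which encodes an F-box protein of ubiquitin ligase complexes. The labels do not say whether control cells received a non-targeting siRNA, nor whether letters stand for separate cultures. The p-values therefore only set differences between groups against the spread between libraries of a group, and that spread may be technical.

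Myogenic bHLH factors pair with E-proteins and bind E-boxes, short DNA elements with the letters CANNTG, in muscle gene promoters. Myf5 and MyoD set and keep the myoblast fate, whereas myogenin and Myf6 (also called MRF4) act later, during differentiation into myotubes. Pax7 marks muscle stem cells (satellite cells), lies upstream of Myf5 and Myod1, and is usually lost as cells differentiate.

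Promoter sequences are shown for the gene with the largest change, Myog, and for Myf5. After Fbxl2 siRNA Myf5 was higher than in control by the test described below, while Myod1 and Myog were lower. Myf6 was higher too but missed the threshold of that test. Each run is the 250 bases before the RefSeq transcription start on build GRCm38.p6, 5′ to 3′ on the gene's strand, and capitals mark every CANNTG E-box. The Myog window is chr1:134289754-134290003 on the plus strand and the Myf5 window is chr10:107486135-107486384 on the minus strand.
Myog: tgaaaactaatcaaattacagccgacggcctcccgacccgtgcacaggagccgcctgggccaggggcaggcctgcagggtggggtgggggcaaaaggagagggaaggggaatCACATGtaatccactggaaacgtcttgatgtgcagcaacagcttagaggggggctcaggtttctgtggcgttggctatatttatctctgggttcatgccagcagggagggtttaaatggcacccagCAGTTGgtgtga
Myf5: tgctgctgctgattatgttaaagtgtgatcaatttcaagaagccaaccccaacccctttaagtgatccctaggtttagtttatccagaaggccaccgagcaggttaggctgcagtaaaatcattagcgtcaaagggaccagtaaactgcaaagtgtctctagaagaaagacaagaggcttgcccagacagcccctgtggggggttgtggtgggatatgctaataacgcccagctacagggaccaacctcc
The Myog window held 2 E-boxes, CACATG at position -138 and CAGTTG at -12, counted to the first base of the motif from the transcription start. The Myf5 window held 0, and so did the matching Pax7 window. CANNTG reads the same on both strands, and 66.2% of the 32851 promoter windows of this length held at least 1. A GC box, GGGCGG or its reverse complement CCGCCC, was found once in the Pax7 window, as CCGCCC at -148, and in 32.7% of all windows. Neither the Myog nor the Myf5 window held a GC box. TATAAA or its reverse complement TTTATA was in none of the 3 windows and in 12.4% of all windows.

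In the mm10 build named by the submitters' processing notes (GRCm38; coordinates from the GENCODE annotation), Myod1 is a protein-coding gene on chromosome 7 from 46376474 to 46379099 on the plus strand, with 3 exons. Myog lies on chromosome 1 from 134289989 to 134292548 on the plus strand, also with 3 exons. Pax7 spans chromosome 4 from 139737062 to 139833528 on the minus strand, with up to 9 exons. Myf5, at 107482908 to 107486134, and Myf6, at 107492853 to 107494737, are neighbours on the minus strand of chromosome 10, separated by 6718 bases with 0 annotated genes between them. No annotated gene overlapped any of the 5. These GENCODE starts differ from the RefSeq starts used for the promoter windows of Myog and Pax7. By GENCODE the Myog window ran past the gene's start, so its E-box at -12 lay within the gene. The Pax7 window, chr4:139832969-139833218, lay wholly within the Pax7 gene. No promoter sequence was available for Myod1 or Myf6.

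Library totals ran from 26416978 to 32917763 counts, and levels are given as CPM (counts scaled to a common library total) after TMM scaling, a correction for library composition. Fold changes, standard errors (SE) and p-values came from edgeR's quasi-likelihood test over all 12 libraries with Benjamini-Hochberg adjustment over all 12736 genes, and an adjusted p under 0.05 counts below as a call. The siRNA target Fbxl2 stood at 32.9 ± 1.30 CPM (SD, n = 3) in control and 22.2 ± 1.52 in Fbxl2 siRNA libraries, or 67.5% of control (log2 -0.57, SE 0.06, adjusted p = 1.67e-07). TNF cells held 28.9 ± 1.05 CPM of Fbxl2 and proliferating cells 25.9 ± 1.71.

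**Figure D1:**
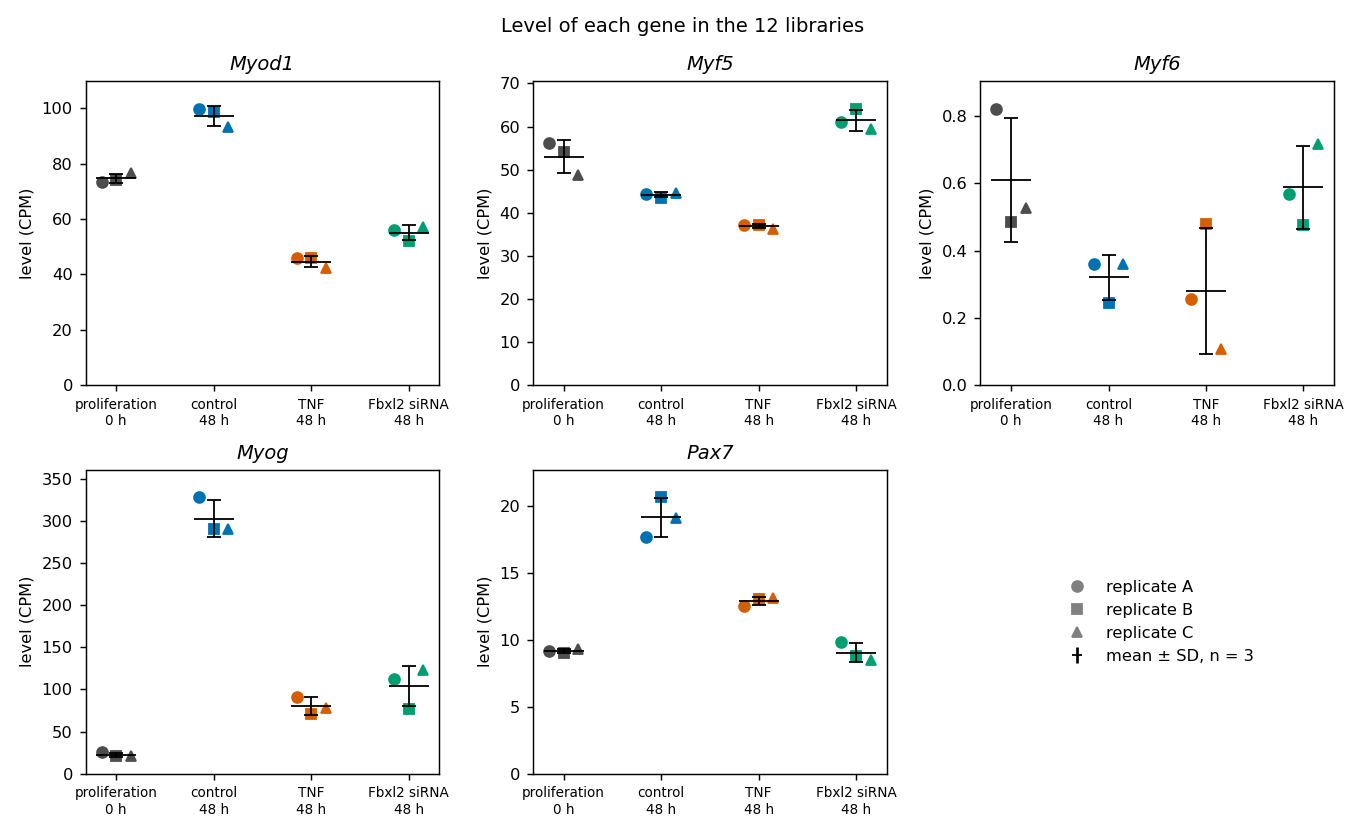
Level of each gene in CPM (vertical axes, from 0) in the 12 libraries, by group and harvest time; symbols give the replicate letter, and bars the mean ± SD of 3 libraries. Myod1, Myog and Pax7 were highest in control, Myf5 was highest after Fbxl2 siRNA, and Myf6 stayed under 1 CPM in every library.

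Pax7 was highest in the differentiated control and about equally low in proliferating and Fbxl2-silenced cells. Proliferation libraries A, B and C held 9.21, 9.01 and 9.34 CPM of Pax7 and control libraries 17.7, 20.7 and 19.1 CPM. TNF libraries held 12.5, 13.1 and 13.1 CPM, and Fbxl2 siRNA libraries 9.84, 8.81 and 8.51 CPM. The TNF libraries therefore lay between control and the other groups with no overlap on either side, whereas proliferation and Fbxl2 siRNA libraries overlapped.

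From 0 to 48 h Pax7 rose 2.08-fold (log2 fold change 1.06, SE 0.08, adjusted p = 6.04e-11). In TNF cells it was at 67.4% of control (log2 -0.57, SE 0.07, adjusted p = 1.02e-06), and in Fbxl2-silenced cells at 47.3% of control (log2 -1.08, SE 0.08, adjusted p = 1.53e-10). TNF cells held 1.42 times the Pax7 of silenced cells (adjusted p = 1.36e-05) and 1.40 times that of proliferating cells (adjusted p = 1.22e-05). Silenced and proliferating cells differed by a log2 of -0.02, with a 95% interval of -0.19 to 0.15 (adjusted p = 0.845). In bulk RNA of this kind, fewer cells expressing a gene and less RNA per cell cannot be told apart. Pax3, the paralogue of Pax7, was near background at group means of 0.0436 to 0.226 CPM and was not tested.

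Myf5 followed another order, with Fbxl2 siRNA above proliferation, proliferation above control, and control above TNF. Proliferation libraries held 56.1, 54.1 and 48.7 CPM of Myf5, and control libraries 44.5, 43.5 and 44.6 CPM. TNF libraries held 37.1, 37.2 and 36.3 CPM, and Fbxl2 siRNA libraries 61.0, 64.2 and 59.4 CPM. No library of one group overlapped another group, although proliferation spread more (SD 3.84) than control (SD 0.616) or TNF (SD 0.499).

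In control cells Myf5 was at 83.4% of its proliferating level (log2 fold change -0.26, SE 0.05, adjusted p = 0.000167). Below, "on differentiation" means control against proliferation, groups that differ in harvest time, medium and serum together. TNF cells were at 83.5% of control (log2 -0.26, SE 0.05, adjusted p = 0.000415), a change similar in size. Fbxl2-silenced cells went the other way, to 1.39 times control (log2 0.48, SE 0.05, adjusted p = 1.34e-07) and 1.16 times proliferating cells (log2 0.22, SE 0.05, adjusted p = 0.00129). Between the treated groups the difference was therefore wider than either difference from control: TNF cells held 60.0% of the Myf5 of silenced cells (log2 -0.74, SE 0.05, adjusted p = 2.16e-10).

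Myod1 was highest in control and lower in both treated groups than in proliferating cells. The 3 proliferation libraries held 73.5, 74.1 and 76.5 CPM of Myod1, and the control libraries 99.8, 98.6 and 93.2 CPM. TNF libraries held 45.7, 45.8 and 42.3 CPM, and Fbxl2 siRNA libraries 56.0, 52.0 and 57.1 CPM. The 4 groups did not overlap.

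Control exceeded proliferation 1.30-fold (log2 fold change 0.38, SE 0.05, adjusted p = 4.69e-07). TNF cells were at 45.9% of control (log2 -1.12, SE 0.05, adjusted p = 1.01e-13) and 59.8% of proliferating cells (log2 -0.74, adjusted p = 3.81e-11). Silenced cells were at 56.6% of control (log2 -0.82, SE 0.05, adjusted p = 1.59e-11) and 73.7% of proliferating cells (log2 -0.44, adjusted p = 1.94e-07). Set against silencing, TNF gave the lower Myod1 level, at 81.1% (log2 -0.30, SE 0.05, adjusted p = 3.98e-05).

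Myog, which encodes myogenin, had the widest range of the 5 genes. Proliferation libraries held 25.2, 21.4 and 21.0 CPM of Myog and control libraries 327.7, 289.7 and 289.7 CPM. TNF libraries held 91.4, 70.6 and 77.7 CPM, and Fbxl2 siRNA libraries 112.6, 77.3 and 122.7 CPM. Control stood far above all others and proliferation below all others, while the treated groups overlapped because siRNA library B lay below TNF libraries A and C.

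The rise from proliferation to control was 13.4-fold (log2 fold change 3.74, SE 0.19, adjusted p = 6.37e-08). TNF cells reached 26.5% of the control level (log2 -1.92, SE 0.17, adjusted p = 9.46e-06) and silenced cells 34.4% (log2 -1.54, SE 0.17, adjusted p = 3.30e-05). Both treated groups remained above proliferating cells, TNF 3.55-fold (log2 1.83, adjusted p = 1.62e-05) and Fbxl2 siRNA 4.61-fold (log2 2.21, adjusted p = 6.27e-06). The difference between them, a log2 of -0.38 with a 95% interval of -0.77 to 0.01, did not pass the test (adjusted p = 0.0824). Without siRNA library B it was -0.56 and did (adjusted p = 0.000499).

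Myf6 was counted 3 to 25 times per library, so its values rest on few reads. Proliferation libraries had 25, 13 and 16 Myf6 counts and control libraries 12, 7 and 10. TNF libraries had 8, 13 and 3 counts, and Fbxl2 siRNA libraries 16, 14 and 19. As means these were 0.611 ± 0.184, 0.321 ± 0.0668, 0.280 ± 0.187 and 0.588 ± 0.122 CPM (SD, n = 3), with control below both proliferation and siRNA in every library.

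By the same test Myf6 fell to 52.8% of the proliferating level in control (log2 fold change -0.92, SE 0.38, adjusted p = 0.0317). This call was lost when proliferation library A was left out (adjusted p = 0.174) or control library B (adjusted p = 0.110), and with DESeq2 (adjusted p = 0.0767). TNF and control differed by -0.21 (95% interval -1.14 to 0.72, adjusted p = 0.710). Silenced cells were at 1.80 times control, which missed the threshold (log2 0.85, 95% interval 0.05 to 1.65, adjusted p = 0.0592) but passed it without TNF library B or C (adjusted p = 0.0441 and 0.0430). TNF cells were called lower than silenced cells (log2 -1.06, adjusted p = 0.0269) and lower than proliferating cells (log2 -1.14, adjusted p = 0.0135). The first of these was lost without TNF library A, TNF library C or siRNA library C (adjusted p = 0.0773 to 0.144), and the second without proliferation library A or TNF library C (adjusted p = 0.0852 and 0.0859).

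**Figure D2:**
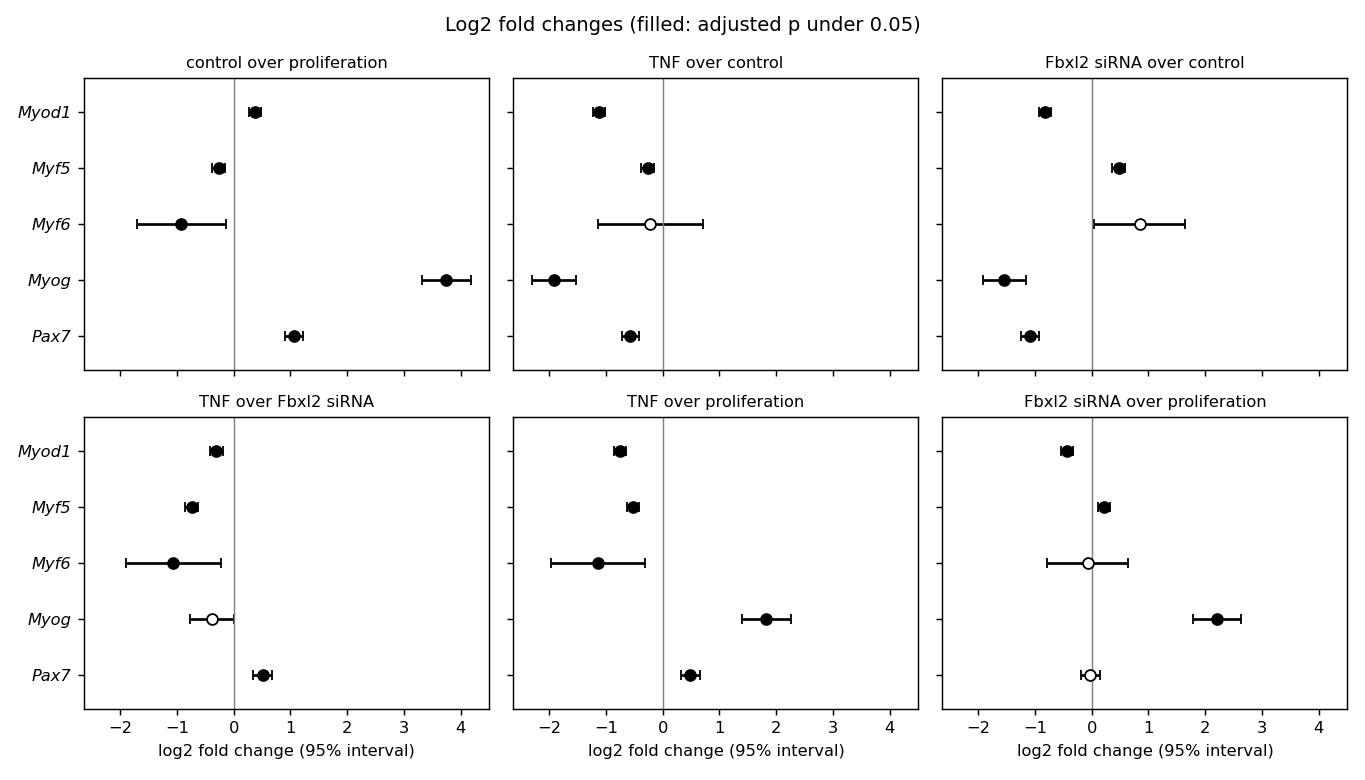
Log2 fold change of each gene (horizontal axes) in the 6 pairwise comparisons, with 95% intervals; filled points have an adjusted p under 0.05. Myog at 3.74 in control over proliferation is the farthest from 0, Myf5 and Myod1 have opposite signs in Fbxl2 siRNA over control, and the Myf6 intervals are the widest.

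Between control and proliferation all 5 genes were called, 3 higher and 2 lower, where 77.2% of the genes tested were called. In TNF against control 4 were called, all lower, against 54.6% of all genes, and in Fbxl2 siRNA against control 4 were called, 1 higher and 3 lower, against 63.9%. TNF against Fbxl2 siRNA gave 4 calls, 1 higher and 3 lower (60.5% of all genes). TNF against proliferation gave 5, 2 higher and 3 lower (72.9%), and Fbxl2 siRNA against proliferation gave 3, 2 higher and 1 lower (62% of all genes). Calls were common across the whole table, so the counts alone do not set these 5 genes apart. The TNF and Fbxl2 siRNA comparisons share the control libraries.

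Levels were compared between genes after division by exon length, on the RPKM scale (CPM divided by the kilobases of exon). The 4 bHLH genes summed to 81.1 ± 2.55 RPKM (SD, n = 3) in proliferation, 276 ± 16.1 in control, 95.4 ± 7.35 in TNF and 129 ± 16.4 in Fbxl2 siRNA libraries. In proliferating cells Myod1 made up 49.5% ± 2.51 of that sum, Myf5 31.3% ± 1.49, Myog 18.6% ± 1.32 and Myf6 0.593% ± 0.160. In control cells Myog made up 73.3% ± 1.07, Myod1 19.0% ± 0.792 and Myf5 7.70% ± 0.415.

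Myog was also the main bHLH mRNA per kilobase in both treated groups, at 55.9% ± 3.28 in TNF and 53.4% ± 5.95 in Fbxl2 siRNA libraries. Myod1 was the next in TNF cells, at 25.2% ± 1.88 against 18.6% ± 1.34 for Myf5. In silenced cells the shares of Myod1 and Myf5 were 23.0% ± 1.90 and 23.2% ± 4.08. The order of these genes in the treated groups depended on the length used. Per kilobase of coding sequence, TNF cells held 48.2 ± 0.653 RPKM of Myf5 and 46.8 ± 2.11 of Myod1, and silenced cells 80.4 ± 3.18 of Myf5 and 57.7 ± 2.86 of Myod1. Pax7 was far below Myod1, Myf5 and Myog on the exon-length scale, at 1.57 ± 0.0284, 3.27 ± 0.251, 2.20 ± 0.0538 and 1.55 ± 0.119 RPKM in proliferation, control, TNF and Fbxl2 siRNA.

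**Figure D3:**
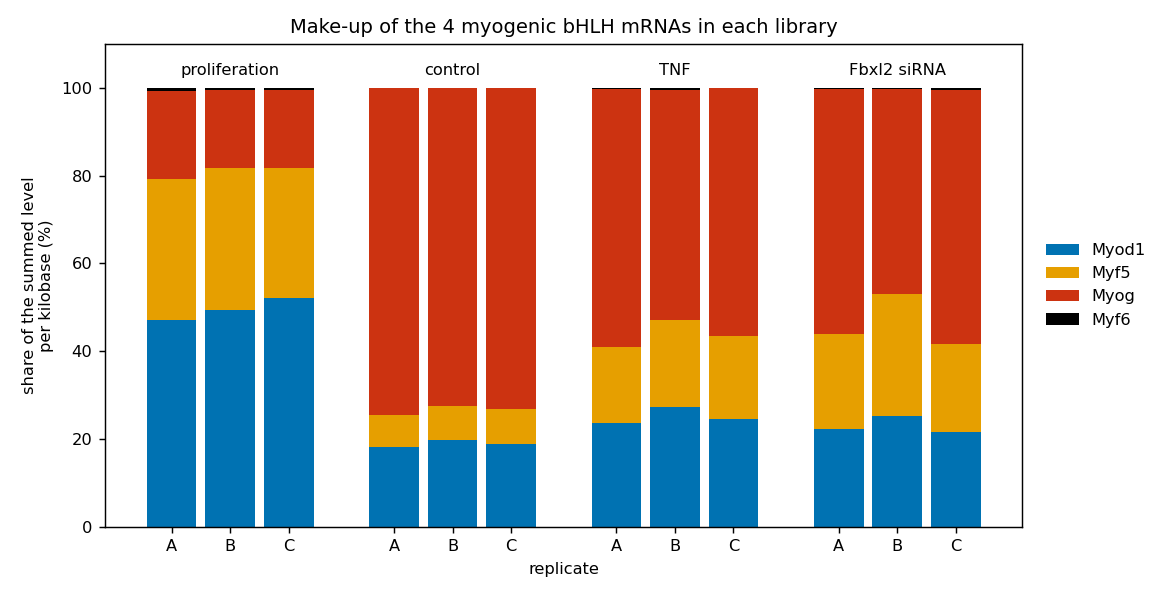
Share of the summed RPKM of the 4 myogenic bHLH genes (vertical axis, percent, from 0) contributed by each gene, 1 stacked bar per library, lettered by replicate within its group. Myod1 is the largest segment in the 3 proliferation libraries and Myog the largest in the 9 libraries at 48 h; Myf6 is barely visible.

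Ratios of raw counts within a library do not depend on scaling. The ratio of Myog to Myod1 counts was 0.302 ± 0.0360 (SD, n = 3) in proliferation and 3.11 ± 0.173 in control. It was 1.79 ± 0.232 in TNF and 1.88 ± 0.349 in Fbxl2 siRNA libraries, where the ranges overlapped. The ratio of Myf5 to Myod1 counts separated all 4 groups, at 0.710 ± 0.0659 in proliferation, 0.455 ± 0.0207 in control, 0.828 ± 0.0268 in TNF and 1.12 ± 0.102 in Fbxl2 siRNA. Myf5 had more counts than Myod1 only in the siRNA libraries, in all 3 of them.

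E-proteins, the partners of the myogenic bHLH factors, moved less than Myog. Tcf4 rose 2.20-fold from proliferation to control (adjusted p = 1.30e-13), then stood at 71.6% of control in TNF cells (adjusted p = 2.07e-07) and 65.5% in silenced cells (adjusted p = 6.07e-09). Tcf12 was 0.24 higher on the log2 scale in control than in proliferation, and differed from control by -0.07 in both treated groups, which did not pass the test (adjusted p = 0.210 in TNF and 0.224 in silenced cells). Tcf12 did pass against control when only the groups compared were fitted, in TNF (adjusted p = 0.0384) and in silenced cells (adjusted p = 0.0462), and in TNF with upper quartile scaling (-0.12, adjusted p = 0.0283) or without TNF library A (adjusted p = 0.0485). Tcf3, which encodes E12 and E47, fell by 0.36 on the log2 scale from proliferation to control and was 0.14 higher in TNF than in control (adjusted p = 0.0168), a call lost with upper quartile scaling (adjusted p = 0.118), with no count filter, and without control library A or C. In silenced cells Tcf3 differed from control by -0.01 (adjusted p = 0.845).

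Among inhibitors and repressors of the family, 14 of 18 had enough counts to be tested. From proliferation to control 6 rose and 7 fell, and the median log2 was -0.11 against -0.00084 over all genes, of which 38.4% were called higher and 38.9% lower. In TNF against control 6 were higher and 5 lower (median 0.03), where 31% of all genes were called higher and 23.6% lower with a median of 0.03. In Fbxl2 siRNA against control 3 were higher and 7 lower (median -0.21), where 34.1% and 29.8% of all genes were, again with a median of 0.03. Members of the list moved in both directions in each of these comparisons.

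The Id genes encode proteins that bind E-proteins and keep them from DNA. Id1 held 23.9 ± 0.964, 15.7 ± 0.502, 7.20 ± 0.220 and 11.2 ± 0.534 CPM in proliferation, control, TNF and Fbxl2 siRNA, and was called lower than control in both treated groups. Id3 held 63.2 ± 1.18, 53.5 ± 2.98, 29.6 ± 2.35 and 16.4 ± 0.858 CPM in the same order, and its fall to 30.7% of control in silenced cells was the deepest of the inhibitor list there (adjusted p = 1.96e-14). Id2 fell by 0.66 on the log2 scale on differentiation and differed from control by 0.05 in TNF (adjusted p = 0.735) and by -0.04 in silenced cells (adjusted p = 0.752). Id4 was near 0 in all groups and was not tested.

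The member of the inhibitor list with the largest fall on differentiation was Msc, a bHLH repressor also called MyoR, and it was also the one with the largest rise in silenced cells. Msc held 16.2 ± 1.24 CPM in proliferation, 4.20 ± 0.174 in control, 4.28 ± 0.522 in TNF and 24.3 ± 0.965 in Fbxl2 siRNA libraries. It was thus 5.79-fold higher in silenced than in control cells (log2 2.53, SE 0.09, adjusted p = 6.06e-15), while TNF and control differed by 0.02 (adjusted p = 0.890). In the other comparisons the ends of the list were Bhlhe41, a bHLH repressor that rose 2.94-fold on differentiation, its relative Bhlhe40, which was 1.62-fold higher in TNF than in control, and the Notch target Hey1, at 38.6% of control in TNF cells.

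Of 18 upstream activators and cofactors 15 were tested, and 11 rose and 2 fell from proliferation to control (median log2 0.30, with -0.00084 over all genes, of which 38.4% were called higher and 38.9% lower). In TNF against control 3 were higher and 8 lower (median -0.19, with 0.03 over all genes, 31% called higher and 23.6% lower). In Fbxl2 siRNA against control 2 were higher and 11 lower (median -0.31, with 0.03 over all genes, 34.1% called higher and 29.8% lower). Mef2c, a MADS-box factor that acts together with myogenic bHLH factors, held 5.82 ± 0.550, 25.8 ± 4.46, 6.81 ± 1.56 and 13.7 ± 1.74 CPM in proliferation, control, TNF and Fbxl2 siRNA. It was the gene of the list with the largest rise on differentiation, 4.46-fold, and the largest fall in TNF cells, to 26.5% of control.

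Genes of the Eya family, which encode coactivators, made up the other ends of that list. Eya4 was at 44.9% of control in silenced cells (log2 -1.15, adjusted p = 8.28e-13). Eya3 fell by 0.52 on the log2 scale on differentiation and was 0.33 higher in silenced than in control cells. Eya1 was 1.47-fold higher in TNF than in control.

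Genes listed as E-box targets of MyoD and myogenin moved largely together. Binding of either factor was not measured here, and the list was chosen with earlier results of these data known. Of the 28 listed genes, all tested, 27 rose and 0 fell from proliferation to control (median log2 3.57), where 38.4% of all genes were called higher. The gene not called was Chrnd, a subunit of the acetylcholine receptor, at -0.10 (adjusted p = 0.166). In TNF against control all 28 were lower (median -1.92, where 23.6% of all genes were called lower). In Fbxl2 siRNA against control 27 were lower (median -0.95, where 29.8% were), the exception being desmin (Des) at 0.09 (adjusted p = 0.125).

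Embryonic myosin heavy chain, Myh3, was the target with the largest rise on differentiation and the largest fall in TNF cells. It held 6.31 ± 1.08 CPM in proliferation, 737 ± 88.2 in control, 153 ± 35.9 in TNF and 238 ± 64.5 in Fbxl2 siRNA libraries, with adjusted p = 6.02e-08 for the rise and 4.43e-05 for TNF against control. In silenced cells the largest fall among the listed genes was that of Cdkn1c, the cell cycle inhibitor p57, at 28.2% of control (adjusted p = 2.42e-10). Set directly against Fbxl2 siRNA, TNF had 24 of the 28 listed genes lower and 0 higher, with a median of -0.79, where 30.6% of all genes were called lower. The other 4, Cdkn1c, Chrnb1, Rb1 and Ryr1, did not pass.

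**Figure D4:**
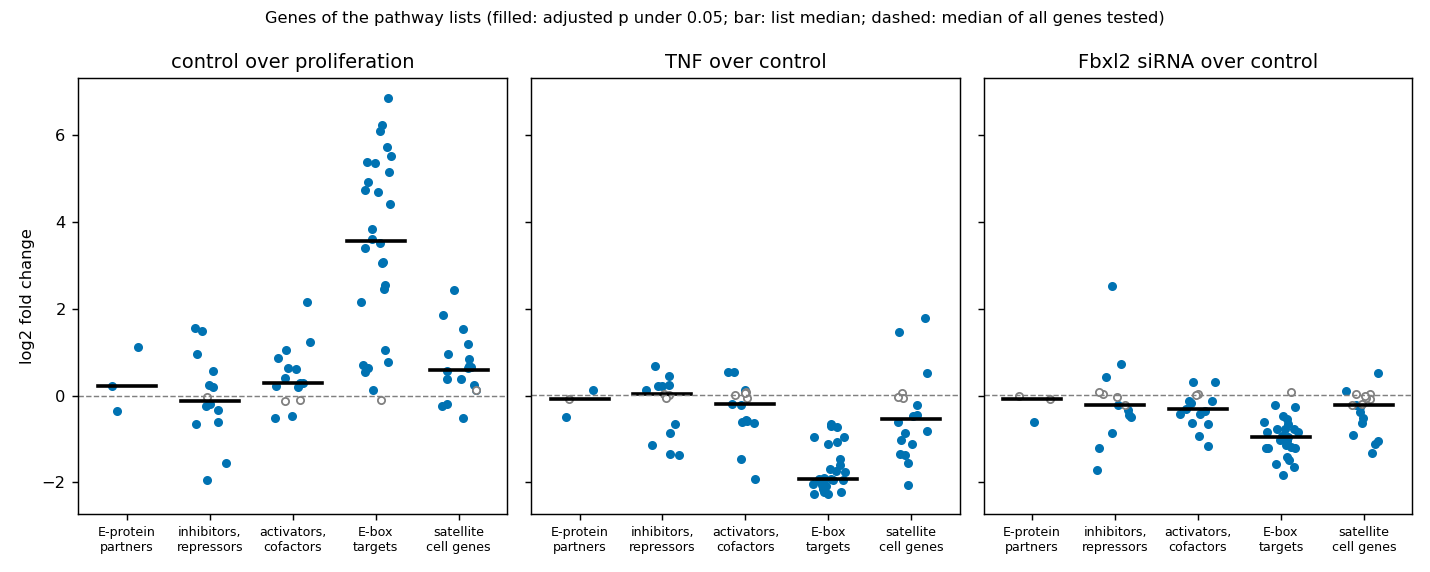
Log2 fold change (vertical axis) of the tested genes of 5 lists around the myogenic bHLH factors and Pax7 in 3 comparisons; filled points have an adjusted p under 0.05, thick bars are list medians, the dashed line is the median of all genes tested. E-box targets lie above the other lists in control over proliferation (median 3.57) and below them in TNF (-1.92) and Fbxl2 siRNA (-0.95) over control.

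Of 20 genes that accompany Pax7 in satellite and reserve cells, 18 were tested, and 14 rose and 3 fell from proliferation to control (median log2 0.60, with -0.00084 over all genes, of which 38.4% were called higher and 38.9% lower). In TNF against control 3 were higher and 12 lower (median -0.54, with 0.03 over all genes, 31% called higher and 23.6% lower). In Fbxl2 siRNA against control 2, Cd34 and Met, were higher and 9 lower (median -0.21, with 0.03 over all genes, 34.1% called higher and 29.8% lower). Sox8, an Sry-related transcription factor, rose most on differentiation, from 3.55 ± 0.443 to 19.4 ± 0.330 CPM. The receptor tyrosine kinase gene Met fell most there, to 69.8% of its proliferating level.

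Members of this list diverged in the treated groups. The adhesion molecule Vcam1 was 3.46-fold higher in TNF than in control (704 ± 29.3 against 203 ± 4.03 CPM, adjusted p = 3.10e-17), and 202 ± 11.3 CPM in silenced cells. The chemokine receptor Cxcr4 was at 24.2% of control in TNF cells (adjusted p = 4.45e-17). In silenced cells Megf10, a transmembrane protein of satellite cells, was at 40.4% of control (adjusted p = 2.61e-13), and Cd34 was 1.43-fold higher.

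The genes whose log2 CPM ran most like each member over the 12 libraries were ranked by Pearson's r. These r values are descriptions over 4 groups, since libraries of a group share their treatment. Myog ran most like H19, an imprinted noncoding RNA (r = 0.997), followed by Lrp4, Dysf, Rbm24 and Prelp. H19 held 689 ± 36.7, 4232 ± 276, 1551 ± 142 and 2088 ± 279 CPM in proliferation, control, TNF and Fbxl2 siRNA. Lrp4, a receptor of the neuromuscular junction, held 17.9 ± 2.66, 246 ± 5.15, 64.8 ± 3.01 and 86.1 ± 13.2 CPM.

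Myod1 ran most like Ckb, the brain-type creatine kinase (r = 0.991), then Dnaaf5, Peg3, Nptx1 and Fgfrl1. Ckb stood at 105 ± 2.52, 129 ± 7.76, 52.9 ± 1.58 and 71.8 ± 2.46 CPM in the same group order. The genes most like Myf5 were Gria1, Cd44, Spin4, Rras2 and Sema3e (r = 0.977 to 0.978). Of these Cd44, the hyaluronan receptor, held 1088 ± 48.6, 865 ± 27.2, 614 ± 33.1 and 1392 ± 18.7 CPM. For Pax7 they were Fmnl3, Dvl3, Fbxo21, Gpatch2l and Lmcd1 (r = 0.978 to 0.983).

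Myf6 had Skint5, Fbxo16, Nme4, Hspa1l and Lrrc10b as its nearest genes, but Skint5 (r = 0.948) was itself counted only 16 to 56 times per group. None of the 5 members was among the nearest genes of another. The highest r between members was 0.768, for Myog and Pax7, and the lowest was -0.642, for Myf5 and Pax7. With Spearman's rho in place of Pearson's r, 2 of the nearest 5 were shared for Myod1, 2 for Myf6 and 0 for Myf5, Myog and Pax7, so the names depend on the measure.

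Markers of the labelled cell type and of others were read beside these results. The 8 skeletal muscle markers, some of them also E-box targets, were all detected. In TNF against proliferation they did not move as one, with 4 higher, 3 lower and 1 not called (median log2 1.58). Their sums therefore do not show how single markers moved. The summed level ran from 1894 to 2081 CPM in proliferation and 4419 to 4894 in control. It ran from 1833 to 1950 in TNF and 2809 to 3286 in Fbxl2 siRNA libraries. Cycling cell markers summed to 1948 to 2150, 538 to 611, 1041 to 1080 and 1159 to 1226 CPM in the same group order. All 8 were lower in control than in proliferation, where 38.9% of all genes were called lower. All 8 were higher than control in each treated group, where 31% (TNF) and 34.1% (Fbxl2 siRNA) of all genes were called higher. The 8 smooth muscle markers summed to 1569 to 1631, 5305 to 5507, 5956 to 6171 and 3051 to 3207 CPM. Acta2 and Tpm1 gave most of these sums, at 2993 and 1776 CPM in control. Myh11 was near background at group means of 0.0439 to 0.132 CPM and was not tested. In TNF against control Acta2, Tagln, Cnn1 and Mylk were higher, Lmod1 was lower (log2 -0.35), and Smtn and Tpm1 were not called. The 8 fibroblast markers summed to 4276 to 5361, 10650 to 10779, 8608 to 9096 and 11317 to 11987 CPM. Fibroblast markers did not move as one. In Fbxl2 siRNA against control Col3a1 (8188 against 5963 CPM), Dpt (log2 1.18) and Lum (0.78) were higher, whereas Col1a1 (-0.58), Col1a2 (-0.34) and Dcn (-0.31) were lower. Pdgfra was not called there, and Thy1 was not tested. Osteoblast markers summed to 7067 to 7448, 1165 to 1217, 1317 to 1383 and 2182 to 2367 CPM, with Ibsp at 0 in every library, and 1 gene, Spp1, gave 7232 of the mean sum of 7303 CPM in proliferation. Of the other osteoblast markers Runx2 changed by -0.17 on differentiation. Alpl, at 0 in proliferation, reached 0.724 CPM in control and was lower in both treated groups. Phex (log2 -2.59) and Dmp1 (-1.59) fell on differentiation. Against control both were higher in Fbxl2 siRNA (log2 2.06 for Phex and 0.68 for Dmp1) and lower in TNF (-1.34 and -0.74). Sp7 and Bglap were not tested. Adipocyte markers stayed between 34.8 and 62.2 CPM, macrophage markers between 9.17 and 16.8 with Adgre1 at 0, and endothelial markers between 0.625 and 3.02 with 5 of 8 at 3 counts or fewer in every library. The part of these shifts in the values of the bHLH genes and Pax7 was not tested.

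The authors' deposited table for Fbxl2 siRNA against control gave log2 fold changes of -0.84 for Myod1, 0.46 for Myf5, -1.56 for Myog and -1.10 for Pax7. Their deposited table for TNF against control gave -1.15, -0.29, -1.95 and -0.60 for the same genes. In the authors' deposited table named for proliferation, Myog stood at 1.83 and Myod1 at -0.74. Over all genes those values differed from the TNF-over-proliferation fold changes of the deposited counts by a median of 0.00095, and from control over proliferation by 0.179, so that table was read as TNF over proliferation.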

How the data were processed

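The authors deposited whole-number counts per gene for 12 libraries. Per the submitters' processing notes, CASAVA and DESeq2 were used and the build was mm10. Which aligner and counter were used, and whether strand was read, is not given in the sources used here. The authors' deposited tables of comparisons hold log2 fold changes with standard errors and adjusted p-values, and the expression columns of those deposited tables are a signal on the scale of counts divided by 1 size factor per library.

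Counts were fitted with edgeR 4.0.16 in R 4.3.3: TMM scaling, genes kept by filterByExpr (minimum count 10), 4 group means, robust glmQLFit with 8 residual degrees of freedom, glmQLFTest, and Benjamini-Hochberg adjustment. SEs were derived from the F statistic and are approximate. Log2 CPM used a prior count of 2. The fit was tested on simulated counts. No 2 libraries were identical or differed only by sampling noise.

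The members and gene lists were chosen with earlier results of these data known. Named were the members, Fbxl2, the 5 genes most like each member, E-proteins, Id genes, and per list the called genes with the largest rise and fall in control against proliferation and each treatment against control. Names that were counted exceptions (Chrnd, Des, Chrnb1, Rb1, Ryr1) and Pax3 were added after their values were seen. So were single skeletal muscle, smooth muscle, fibroblast and osteoblast markers. Motifs and lengths were computed from RefSeq and GENCODE M21.

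Alternatives were RLE and upper quartile scaling, 2 other count filters, DESeq2 1.42.0, fits of only the groups compared, a replicate block, and leaving out libraries.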

Additional observations from a re-analysis of the deposited data

How the results depend on the processing

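Of 654 alternative values for the 5 genes' log2 fold changes, 624 kept their direction and their side of the threshold. The other 30 concerned Myf6, Myog in TNF against Fbxl2 siRNA, and Pax7 in Fbxl2 siRNA against proliferation. The counts of members called and of all genes called stayed within 1.5 times in all 132 alternatives each. With 3 to 5 members called, a change of 1 gene lay within that limit, so the member count could not show it. Myf6 lost its call in control against proliferation under 5 of 21 alternatives. Of 1320 list counts 38 moved further, most of them for the 3 E-proteins or the 2 satellite cell genes higher in Fbxl2 siRNA than in control, of which 1 was left under some alternatives. Of 40 per-kilobase levels the 20 by coding length moved, and of 99 sets of nearest genes 42 did. For Myog in TNF against Fbxl2 siRNA the log2 fold change was -0.44 with upper quartile scaling (adjusted p = 0.0449) and -0.37 with the replicate block (adjusted p = 0.0175), and -0.56 to -0.22 when libraries were left out. The letters showed little pairing of the libraries: 3 of 18 same-letter pairs had deviations correlated above 0.1, and 5 of 18 correlated better with each other than with the other letters. Same-letter r ran from -0.096 to 0.18 and different-letter r from -0.16 to 0.13. With 3 libraries per group this check cannot exclude a pairing. The block changed no other call of the 5 genes. For Pax7 in Fbxl2 siRNA against proliferation the value was 0.0048 with upper quartile scaling and -0.085 to 0.030 over the left-out libraries. Myf6 was -0.91 in control against proliferation (adjusted p = 0.0767) and -1.06 in TNF against Fbxl2 siRNA (adjusted p = 0.0589) with DESeq2, and 0.83 in Fbxl2 siRNA against control (adjusted p = 0.0327) when only those groups were fitted. With libraries left out Myf6 ran from -1.10 to -0.64 in control against proliferation, -0.95 to 0.23 in TNF against control, 0.69 to 0.98 in Fbxl2 siRNA against control, -1.77 to -0.52 in TNF against Fbxl2 siRNA, -1.84 to -0.76 in TNF against proliferation and -0.34 to 0.22 in Fbxl2 siRNA against proliferation. The filter at 1 CPM in 3 or more libraries removed Myf6, which then had no value. In TNF against control, Id2 was -0.0061 with upper quartile scaling. In Fbxl2 siRNA against control, leaving out libraries gave -0.12 to 0.059 for Id2 and -0.041 to 0.021 for Tcf3. The causes were not tested. Myf6 had 3 to 25 counts per library.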
